A study of Mus musculus with 6 samples.

Results

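The genes described here lie around Thbs2 on proximal mouse chromosome 17. They are 40 listed symbols out of 55401 genes in the deposited table, taken by name, and the list asks in addition for a mean of at least 1 CPM (the read count of a gene for a fixed library size, here with TMM scaling in edgeR) over the 6 libraries. That level was met by 36 of the 40. Dll1 fell short of it but had enough reads to be tested, so that 37 were tested, while Slc22a3, Sytl3 and Wdr27 were not. The names are a list and not every gene of the stretch, so the other 176 tested genes within 12 Mb of Thbs2 are given beside them.

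The RNA came from cultured CAFs, or cancer-associated fibroblasts, the fibroblasts that a tumour recruits and activates. All were taken from tumours that had formed after mouse tumour organoids (MTO) were injected into the rectum of mice, and all were grown on plates coated with fibronectin in DMEM with serum. The labels give 2 genotypes, WT and Thbs2KO, with 3 libraries each. The wild-type group carries no named allele. For Thbs2KO the labels do not give how the allele was made, the strain, the age or the sex of the mice, nor do they say which mice or cultures the replicates came from. Every p-value therefore measures only spread among the libraries sequenced, and that spread may be technical.

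Proximal chromosome 17 of the mouse is known as the t-complex region, where some wild mice carry inversions that block recombination and distort inheritance. It holds the imprinted Igf2r cluster, in which the noncoding RNA Airn is made from the paternal chromosome and silences Igf2r on it. Genes close to a targeted allele are inherited together with it, so mice backcrossed after targeting can keep DNA of the embryonic stem cell strain on either side of the target. Whether the Thbs2KO libraries carry DNA of another strain on this stretch was not tested, since the deposited counts hold no variants.

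Total expected counts ran from 19649066 to 24417464 per library. Thbs2 itself (ENSMUSG00000023885.9, chromosome 17, 14665500 to 14694235, minus strand, GRCm38) had 2327, 4166 and 3705 CPM in WT but 538.2, 424.7 and 412 CPM in Thbs2KO, lower in every library of that label but not absent: 15.8%, 12.5% and 12.1% of the WT mean remained. Thbs2KO replicates 1 and 2 were the most alike of all pairs, with counts that differed by a chi-square of 3.78 per degree of freedom, against 15.6 to 122 for the other pairs, and WT replicate 1 and Thbs2KO replicate 3 stood apart on the second principal component. Of 12 fibroblast markers all were tested, and their summed level was 36093 to 42104 CPM in WT and 36131 to 54384 CPM in Thbs2KO. By edgeR 0 of them changed, with 8 positive and 4 negative log2 fold changes, and by DESeq2 1, Pdgfra. Pdgfra was at 750.5, 555.9 and 388 CPM in WT and at 1013, 947 and 1527 CPM in Thbs2KO. Epithelial markers were low but separated the groups: 6 of 10 were tested, all 6 had negative log2 fold changes, 0 changed by edgeR and 2 (Krt19 and Krt20) by DESeq2, and the sums were 20.1 to 27.2 CPM in WT against 7.33 to 10.1 CPM in Thbs2KO. The summed T cell markers were 0.754 to 1.16 CPM against 1.7 to 2.74 CPM, all of it from Lck, with Cd3e, Cd3d, Cd3g, Cd2, Cd4 and Cd8a at 0 in every library. The macrophage sums overlapped, at 9 to 20.2 CPM against 8.17 to 14 CPM, as did the pericyte sums, at 96.4 to 360.8 CPM against 195.3 to 293.7 CPM. Of 6 tested pericyte markers, 3 with negative and 3 with positive log2 fold changes, 0 changed by edgeR and 1 (Mcam) by DESeq2. Mcam was at 8.44, 13.8 and 12.5 CPM in WT and at 4.26, 5.43 and 5.38 CPM in Thbs2KO. The endothelial sums were 15.2 to 35.6 CPM against 36 to 54.6 CPM with Cldn5 at 0. The part of these other cells in the results below was not tested, and in bulk RNA fewer cells of a type and less RNA per cell cannot be told apart. The 4 Y-linked genes measured were present in all 6 libraries, with sums of 176.6 to 206.9 CPM in WT and 177 to 229.5 CPM in Thbs2KO, Xist included, and Xist stayed between 0 and 0.172 CPM.

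Several of the listed genes exist as near-identical copies, and their sequences are shown first because the division of reads between copies bears on the results. Around 7 to 8 Mb of the chromosome a block is present as 2 copies: Rsph3b, Tagap1 and Rnaset2b lie in the centromeric copy, and Tagap, Rsph3a and Rnaset2a in the other. Over their coding sequence, 777 bases in each, Rnaset2a and Rnaset2b had 0 mismatches, Rsph3a and Rsph3b had 13 in 1548 aligned bases (99.2% identity) and Tagap and Tagap1 had 44 in 1483 (97.0%). The 60-base coding windows with the most mismatches between copies, from GENCODE M21 transcripts on GRCm38, are given 5′ to 3′ in the direction of the transcript, with mismatched bases in capitals. Rnaset2a is at chr17:8147635-8147694 on the minus strand and Rnaset2b at chr17:6978998-6979057 on the plus strand, both in exon 1, where any window of theirs is alike and the first is shown. Rsph3a is at chr17:7946017-7946076 (plus strand, exon 1) and Rsph3b at chr17:6948205-6948264 (minus strand, exon 1). Tagap is at chr17:7933019-7933078 (plus strand, exon 10) and Tagap1 at chr17:6956829-6956888 (minus strand, exon 4).
Rnaset2a: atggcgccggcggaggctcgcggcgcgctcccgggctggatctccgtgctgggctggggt
Rnaset2b: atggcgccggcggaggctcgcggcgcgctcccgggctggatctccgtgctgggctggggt
Rsph3a: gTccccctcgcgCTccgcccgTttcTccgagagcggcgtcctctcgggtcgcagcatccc
Rsph3b: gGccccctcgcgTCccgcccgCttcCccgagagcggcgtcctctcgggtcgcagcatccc
Tagap: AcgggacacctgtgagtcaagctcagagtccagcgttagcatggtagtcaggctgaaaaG
Tagap1: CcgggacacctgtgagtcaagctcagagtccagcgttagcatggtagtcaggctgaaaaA

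The comparison of Thbs2KO with WT asked whether transcripts of this stretch differed between the genotypes along with Thbs2. Of the 37 tested listed genes, 4 changed and all 4 fell: Zdhhc14, 3300005D01Rik, Rnaset2b and Rsph3a. None of them is among the nearest neighbours of Thbs2; they lie 6.69 to 8.91 Mb away on its centromeric side. Changed means a Benjamini-Hochberg adjusted p below 0.05 in the quasi-likelihood test of edgeR over all 13590 tested genes. Over all those genes 148 changed, which is 1.09%. Of all tested genes 0.537% fell and 0.552% rose, whereas 10.8% of the 37 listed genes fell and none rose. The list was chosen with earlier results of these data known, so its shares here and below are a description only. Rnaset2b and Rsph3a each belong to a near-identical pair. With copies summed before the fit, edgeR called 1.06% of tested genes. Zdhhc14, 3300005D01Rik and the sum of Rnaset2a and Rnaset2b passed there, and the sum of Rsph3a and Rsph3b did not. DESeq2 called 4.45% of the genes it tested and 7 of the listed ones, 5 lower and 2 higher. With WT replicate 1 and Thbs2KO replicate 3 both left out, edgeR called 11.2% of tested genes and 10 of the listed ones, 6 lower and 4 higher. Without Thbs2KO replicate 1 2 listed genes passed, 3300005D01Rik and Rnaset2b, in a fit that called 0.274% of all tested genes. The median log2 fold change of the 37 was -0.03, beside -0.00 over all tested genes, with 20 negative and 17 positive values. Their median absolute log2 fold change was 0.158, beside 0.136.

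**Figure D1:**
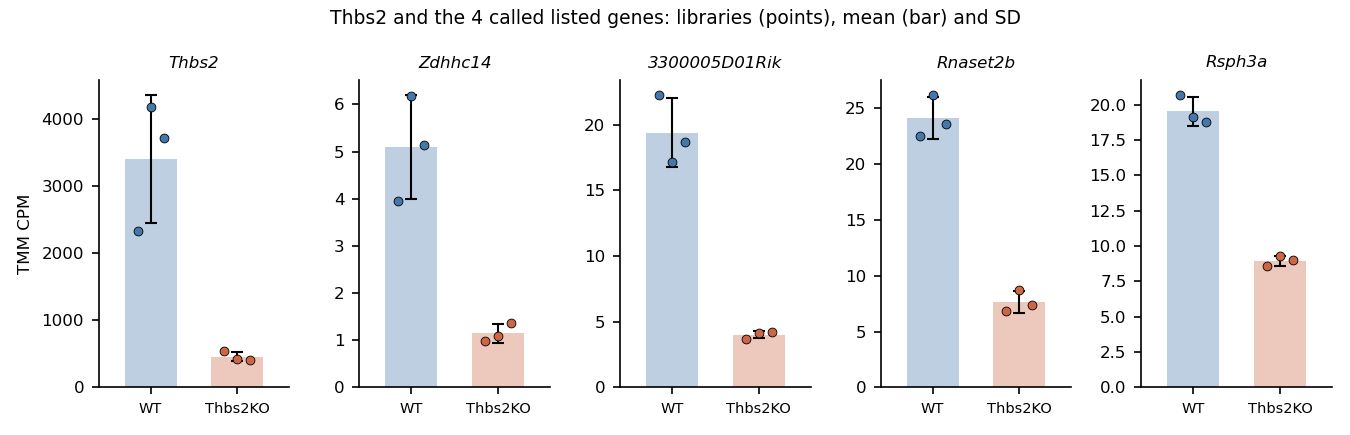
TMM-scaled CPM (vertical axes, each starting at 0 with its own scale) of Thbs2 and the 4 listed genes that changed; points are the 3 WT and 3 Thbs2KO libraries, bars the mean and whiskers the SD. In each panel every Thbs2KO library lies below every WT library.

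The long intergenic noncoding RNA 3300005D01Rik (ENSMUSG00000096965.7, chromosome 17, 5798657 to 5803240, plus strand) was at 22.3, 17.2 and 18.7 CPM in WT and at 3.69, 4.16 and 4.2 CPM in Thbs2KO. The groups lay well apart, and the means fell 4.82-fold, from 19.4 ± 2.6 to 4.02 ± 0.286 CPM (SD, n = 3 each). Its log2 fold change was -2.27 with a standard error of 0.143 (edgeR quasi-likelihood, Benjamini-Hochberg adjusted p = 0.00122). No function is stated for this transcript here. None of its 50-base stretches occurs in the transcripts of another gene in GENCODE M21.

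Zdhhc14 (ENSMUSG00000034265.8, 5492557 to 5753811, plus strand) encodes a palmitoyltransferase, which attaches lipid to membrane proteins, and its annotated end lies ahead of the start of 3300005D01Rik on the same strand. Its levels were 3.96, 6.18 and 5.15 CPM in WT against 0.993, 1.08 and 1.37 CPM in Thbs2KO. All Thbs2KO libraries were low, and the mean fell 4.43-fold, from 5.1 ± 1.11 to 1.15 ± 0.197 CPM (edgeR adjusted p = 0.0182; log2 fold change -2.15 with SE 0.255). This call was lost in 4 of the 6 fits that each left out 1 library: without replicate 2 or 3 of WT and without replicate 1 or 2 of Thbs2KO. The highest edgeR adjusted p, 0.119, was that without Thbs2KO replicate 1.

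Rnaset2b (ENSMUSG00000094724.8, 6970634 to 7011299, plus strand) encodes a copy of RNase T2, an acid ribonuclease of lysosomes that is also secreted. It was at 22.5, 26.2 and 23.6 CPM in WT and at 6.81, 8.71 and 7.38 CPM in Thbs2KO. The mean fell 3.15-fold, from 24.1 ± 1.88 to 7.63 ± 0.975 CPM (edgeR adjusted p = 0.00337; log2 fold change -1.66 with SE 0.13). Rnaset2a (ENSMUSG00000095687.2, 8115445 to 8148097, minus strand), the copy with the same coding sequence shown above, went the other way in these counts: 13.2, 13.1 and 12.2 CPM in WT and 17.1, 16.3 and 19.6 CPM in Thbs2KO. The groups of Rnaset2a did not overlap, but its log2 fold change of 0.46 (SE 0.11) did not pass the test (edgeR adjusted p = 0.124).

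Of the 50-base stretches of Rnaset2a transcripts, 77.2% also occur in Rnaset2b, and 56% of those of Rnaset2b occur in Rnaset2a. Their exons also share 27.2% and 20.4% of their bases with the predicted genes Gm49673 and Gm49721 on the same strand. RSEM assigns reads from such stretches by estimate, so the sum of the copies was taken as well. It was 35.7, 39.2 and 35.8 CPM in WT and 23.9, 25 and 27 CPM in Thbs2KO, with no overlap between the groups. The summed mean of 36.9 ± 2.01 CPM in WT fell by 31.4% to 25.3 ± 1.55 CPM in Thbs2KO (edgeR adjusted p = 0.0472 with the copies summed before the fit; log2 fold change -0.54 with SE 0.086). The two-sided exact permutation test gave p = 0.1, the smallest that 3 against 3 allows. The share of the sum assigned to Rnaset2a was 37%, 33.3% and 34% in WT and 71.5%, 65.2% and 72.6% in Thbs2KO. The sum of Rnaset2a and Rnaset2b was thus lower in Thbs2KO by less than Rnaset2b alone. How it was divided between the copies differed between the groups. Reads assigned to Gm49673 and Gm49721 are not in this sum, and the part of read division in its decrease was not tested.

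Rsph3a (ENSMUSG00000073471.3, 7945614 to 7979824, plus strand) encodes a protein of the radial spoke, a structure of motile cilia. Its levels were 20.7, 19.1 and 18.8 CPM in WT and 8.56, 9.3 and 9 CPM in Thbs2KO. The mean fell 2.18-fold, from 19.5 ± 1.02 to 8.95 ± 0.372 CPM (edgeR adjusted p = 0.00527; log2 fold change -1.13 with SE 0.0987); without Thbs2KO replicate 1 the adjusted p was 0.0544. Its exons share 9.9% of their bases with those of E430024P14Rik on the opposite strand, and the library kit does not mark strand, so reads there cannot be told apart.

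The copy Rsph3b was at 20.1, 18.4 and 16.6 CPM in WT and at 14.6, 16.5 and 17.8 CPM in Thbs2KO, overlapping groups with a log2 fold change of -0.17 (edgeR adjusted p = 0.639). The sum of both copies was 40.8, 37.6 and 35.3 CPM against 23.1, 25.8 and 26.8 CPM, again without overlap. The summed mean was 37.9 ± 2.73 CPM in WT and 25.2 ± 1.9 CPM in Thbs2KO, a log2 fold change of -0.59 (SE 0.0958) that did not pass the test (edgeR adjusted p = 0.0531). Rsph3a made up 50.8%, 50.9% and 53.1% of the sum in WT and 37%, 36.1% and 33.6% in Thbs2KO. For Rsph3 the shift was therefore away from the copy in the block nearer to Thbs2, and for RNase T2 towards it.

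Tagap1, an unlisted gene between Rsph3b and Rnaset2b and a relative of a GTPase-activating protein of T cells, fell from 17, 17.1 and 16.5 CPM to 6.9, 8.42 and 8.36 CPM (log2 fold change -1.10, edgeR adjusted p = 0.0118). Its copy Tagap was at 1.25, 4.64 and 1.89 CPM in WT and at 9.36, 8.07 and 5.92 CPM in Thbs2KO, a log2 fold change of 1.59 that did not pass the test (edgeR adjusted p = 0.215). The sums, 18.3, 21.7 and 18.4 CPM against 16.3, 16.5 and 14.3 CPM, did not overlap. Their log2 fold change of -0.31 did not pass the test (edgeR adjusted p = 0.312). The Tagap share was 6.82%, 21.4% and 10.3% in WT and 57.6%, 49% and 41.4% in Thbs2KO. Tagap exons share 23.2% of their bases with E430024P14Rik on the opposite strand. Tmem181a, listed, and its pseudogene copy Tmem181b-ps showed no such shift: the sum was 69.9 ± 7.47 CPM in WT and 71.3 ± 2.53 CPM in Thbs2KO (exact permutation p = 0.8), and Tmem181a made up 78.9%, 86.3% and 87.6% against 86.7%, 83.4% and 80.7%.

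**Figure D2:**
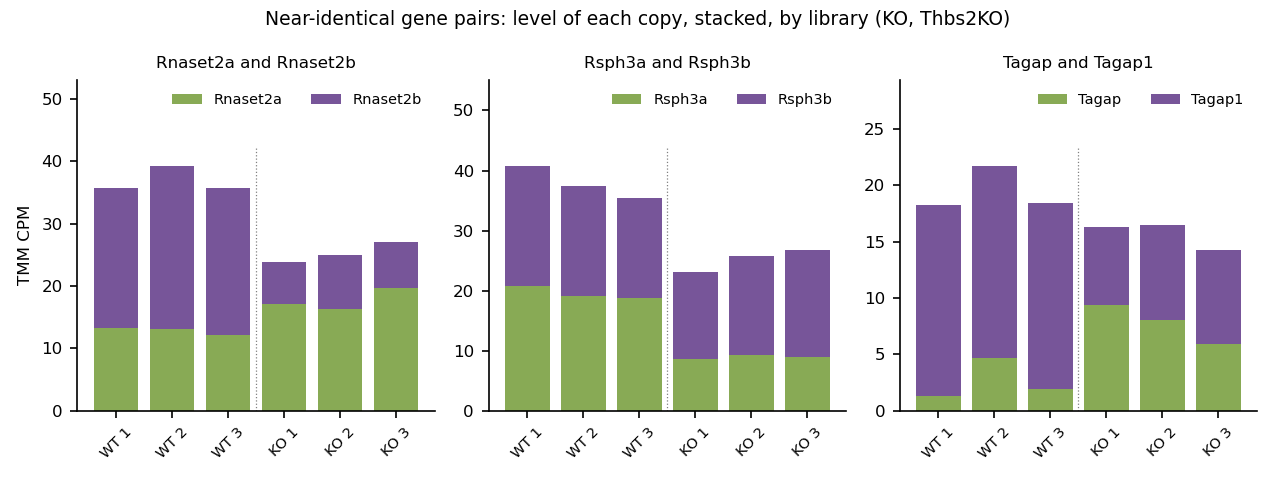
Level of each copy of 3 gene pairs, stacked, in TMM-scaled CPM (vertical axis) for each of the 6 libraries (horizontal axis; KO, Thbs2KO; dotted line between the groups). The stacks of all 3 pairs are lower in every Thbs2KO library than in any WT library, and the Rnaset2a and Tagap segments take a larger share there.

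The nearest listed neighbours of Thbs2, within 1 Mb of it, did not pass the test: 0 of 8 tested changed by edgeR or limma-voom, 1 of them (Smoc2) had an unadjusted p below 0.05, and DESeq2 called that gene alone. Smoc2, a secreted calcium-binding matricellular protein whose gene lies 0.261 Mb from Thbs2, was at 67.7, 68.3 and 25.1 CPM in WT and at 16.5, 23.3 and 31.6 CPM in Thbs2KO. WT replicates 1 and 2 were high, WT replicate 3 lay among the Thbs2KO libraries, and the log2 fold change of -1.17 (SE 0.417) did not pass the test (edgeR adjusted p = 0.293). Dact2, an antagonist of Wnt and TGF-beta family signalling, was at 2.76, 1.84 and 2.18 CPM against 2.08, 1.86 and 2.25 CPM (log2 fold change -0.13), with overlapping groups.

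On the telomeric side, Phf10, a subunit of the PBAF chromatin remodeller, was at 64.7, 90.6 and 81.1 CPM in WT and at 78.6, 74.4 and 69.3 CPM in Thbs2KO (log2 fold change -0.09). Ermard, an endoplasmic reticulum membrane protein, was at 11.8, 8.54 and 7.67 CPM against 9.69, 10.7 and 10.5 CPM (0.14), and 31.4% of its 50-base stretches occur in its neighbour 9030025P20Rik. Both had overlapping groups. Dll1, a Notch ligand, was scarcely detected, at 0.689, 0.482 and 0.126 CPM against 0.567, 0.294 and 0.978 CPM.

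Psmb1, a core subunit of the proteasome, was at 119.8, 120 and 128.3 CPM in WT and at 127.8, 125.2 and 133.2 CPM in Thbs2KO (log2 fold change 0.07). Tbp, the TATA-binding protein of basal transcription, was at 18.4, 16 and 18.9 CPM against 20.9, 19.4 and 19.3 CPM, groups that just missed each other, with a log2 fold change of 0.16 (edgeR adjusted p = 0.599). Pdcd2 was at 13.1, 12 and 13.2 CPM against 12.9, 13.9 and 12.8 CPM (0.05). All its exonic bases overlap Tbp on the opposite strand, but only 19% of those of Tbp overlap Pdcd2. Unspliced reads in the overlap cannot be told apart without strand. Wdr27 had 0.258, 0.351 and 0.251 CPM against 0.331, 0.343 and 0.391 CPM and was not tested.

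In the imprinted cluster, 1.9 Mb from Thbs2, no tested gene changed. Igf2r, the mannose phosphate receptor that carries lysosomal enzymes and removes IGF2, was at 490.1, 296.5 and 259 CPM in WT and at 392.9, 373.8 and 548.5 CPM in Thbs2KO. WT replicate 1 and Thbs2KO replicate 3 were the highest of their groups, the groups overlapped, and the log2 fold change was 0.33 (SE 0.269, edgeR adjusted p = 0.697). Airn was at 2.02, 1.36 and 1.8 CPM against 1.65, 1.08 and 2.35 CPM (log2 fold change -0.03, SE 0.341). Airn runs across the start of Igf2r on the opposite strand, but their exons share no bases. Slc22a3, an organic cation transporter, was at 0.0419 CPM in WT replicate 3 and at 0 in the other libraries, which is not detectable at this depth.

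Imprinted genes elsewhere in the genome were taken as a comparison list. Of 25 tested, 0 changed by edgeR or limma-voom and 1 (Grb10) by DESeq2, 3 had an unadjusted p below 0.05, and the median log2 fold change was -0.04. The smallest p values were those of Grb10, an adaptor that restrains insulin signalling, at 302.2, 285.2 and 284 CPM in WT against 367.1, 345.4 and 396.9 CPM in Thbs2KO (log2 fold change 0.35, edgeR adjusted p = 0.117), and of Plagl1, a zinc finger factor of an imprinted network (0.77, adjusted p = 0.249).

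Among listed genes of transcription and chromatin farther out, Arid1b, a subunit of the BAF chromatin remodeller, had a log2 fold change of 0.05, and Gtf2h5, a subunit of the repair and transcription factor TFIIH, of -0.09. The Gtf2h5 groups did not overlap, at 40.6, 40.7 and 42.4 CPM against 39.2, 39.4 and 37.5 CPM, a difference of small size (edgeR adjusted p = 0.664). None of 11 other tested BAF and PBAF subunits changed by edgeR, DESeq2 or limma-voom, 1 with an unadjusted p below 0.05; Smarcd1 and Smarcc2, with the smallest p, had log2 fold changes of -0.29 and 0.14. Of 9 other TFIIH subunits, 0 changed by edgeR and 1 by DESeq2, also the only 1 with an unadjusted p below 0.05. This was Ercc2, a helicase of the complex, at 18.1, 21.3 and 20.5 CPM in WT and at 11.3, 11.7 and 7.09 CPM in Thbs2KO (log2 fold change -0.99, edgeR adjusted p = 0.0875). Gtf2h4, next in order, had -0.26.

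Among RNA processing and translation genes, Qk, an RNA-binding regulator of splicing, was at 156.5, 169.3 and 178.7 CPM in WT and at 209.6, 203.2 and 196.9 CPM in Thbs2KO. All Thbs2KO libraries were higher, and the log2 fold change of 0.27 (SE 0.0763) did not pass the test (edgeR adjusted p = 0.181). Wtap, a regulatory subunit of the complex that methylates adenosine in messenger RNA, was lower in every Thbs2KO library, at 65.5, 71 and 69.9 CPM against 59.1, 58.1 and 60.1 CPM. Its log2 fold change of -0.22 (SE 0.0658) did not pass either (edgeR adjusted p = 0.21). None of 6 tested partners of Wtap changed by edgeR, DESeq2 or limma-voom, 0 had an unadjusted p below 0.05, and Cbll1 and Mettl14, with the smallest p, had log2 fold changes of 0.10 and -0.11.

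Among genes of membrane traffic, cytoskeleton and adhesion, Ezr, which links the plasma membrane to actin, was at 16, 18.1 and 15.1 CPM in WT and at 32.2, 29.4 and 18.6 CPM in Thbs2KO. Thbs2KO replicate 3 lay just above the WT libraries and the other Thbs2KO libraries well above them; the log2 fold change was 0.71 (SE 0.21, edgeR adjusted p = 0.21). Without Thbs2KO replicate 3, Ezr passed the test, with an adjusted p of 0.0415 by edgeR. Its relatives Msn, Rdx and Nf2 passed neither this test nor DESeq2 or limma-voom, and 1 had an unadjusted p below 0.05. Msn was at 1124, 1213 and 1428 CPM against 1038, 1079 and 910.2 CPM (log2 fold change -0.31, edgeR adjusted p = 0.331), and Rdx had 0.16.

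Tiam2, an activator of the GTPase Rac, had a log2 fold change of -0.31, the sorting nexin Snx9 -0.28, the phosphoinositide phosphatase Synj2 -0.04, and Sft2d1, a protein of vesicle transport to the Golgi, -0.06. Their groups overlapped. Sytl3, an effector of Rab27 in secretion, was at 0 in 5 libraries and at 0.0946 CPM in Thbs2KO replicate 1. The cytosolic chaperonin folds actin and tubulin, and its subunit Tcp1 had a log2 fold change of -0.10; none of its 7 partners changed by edgeR, DESeq2 or limma-voom or had an unadjusted p below 0.05, with values of -0.16 for Cct2 and -0.12 for Cct3.

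Among signalling and extracellular genes, Fndc1, a protein with fibronectin type III domains, varied widely between libraries of the same group. It was at 12.4, 63.4 and 70.6 CPM in WT and at 7.14, 12.6 and 27.4 CPM in Thbs2KO, so that WT replicate 1 lay within the Thbs2KO range. Its log2 fold change of -1.63 (SE 0.723) did not pass the test (edgeR adjusted p = 0.402); with 1 library left out it ran from -1.27 to -2.30, the latter without Thbs2KO replicate 3. The kinases Rps6ka2 and Map3k4 had log2 fold changes of -0.01 and -0.08, the cyclic nucleotide phosphodiesterase Pde10a 0.22, and Tulp4, a tubby-like protein, -0.20. Of 4 thrombospondin relatives of Thbs2 on other chromosomes, 0 changed by edgeR or limma-voom, 1 (Comp) by DESeq2, and 2 had an unadjusted p below 0.05. Comp was at 1.33, 0.526 and 0.922 CPM in WT against 0.142, 0.196 and 0.0978 CPM in Thbs2KO (edgeR adjusted p = 0.0775), and Thbs4 was at 5.17, 24.4 and 7.46 CPM against 25.4, 25.4 and 54 CPM (adjusted p = 0.372).

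No mitochondrial gene of the stretch passed the test. Sod2, the superoxide dismutase of the matrix, was at 39.1, 43.3 and 41.7 CPM in WT and at 41.4, 41.5 and 41.8 CPM in Thbs2KO (log2 fold change 0.01, SE 0.0714). Mpc1, a subunit of the pyruvate carrier, had a log2 fold change of 0.12, Mrpl18, of the mitochondrial ribosome, -0.10, and Tfb1m, a methyltransferase of mitochondrial ribosomal RNA, 0.10. Mpc1 shares 23.1% of its exonic bases with 4930506C21Rik on the opposite strand. Tmem242, a factor in the assembly of ATP synthase, was at 27.6, 26.6 and 29.1 CPM against 32.5, 31.9 and 34.9 CPM; every Thbs2KO library was higher, and the log2 fold change of 0.25 (SE 0.0804) did not pass the test (edgeR adjusted p = 0.24).

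Serac1, a protein of phospholipid remodelling, also had groups that did not overlap, at 2.8, 2.89 and 3.39 CPM against 4.3, 3.62 and 4.2 CPM (log2 fold change 0.42, edgeR adjusted p = 0.39). Among partners on other chromosomes, 0 of 14 tested mitochondrial genes changed by edgeR, DESeq2 or limma-voom, 1 with an unadjusted p below 0.05; Mrpl9 had a log2 fold change of -0.36 (adjusted p = 0.132) and Polrmt of -0.19. None of 13 other core subunits of the proteasome changed by edgeR, DESeq2 or limma-voom, none had an unadjusted p below 0.05, and the values for Psmb5 and Psmb2 were both -0.09. The remaining listed gene, Tmem181a, had 0.02.

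**Figure D3:**
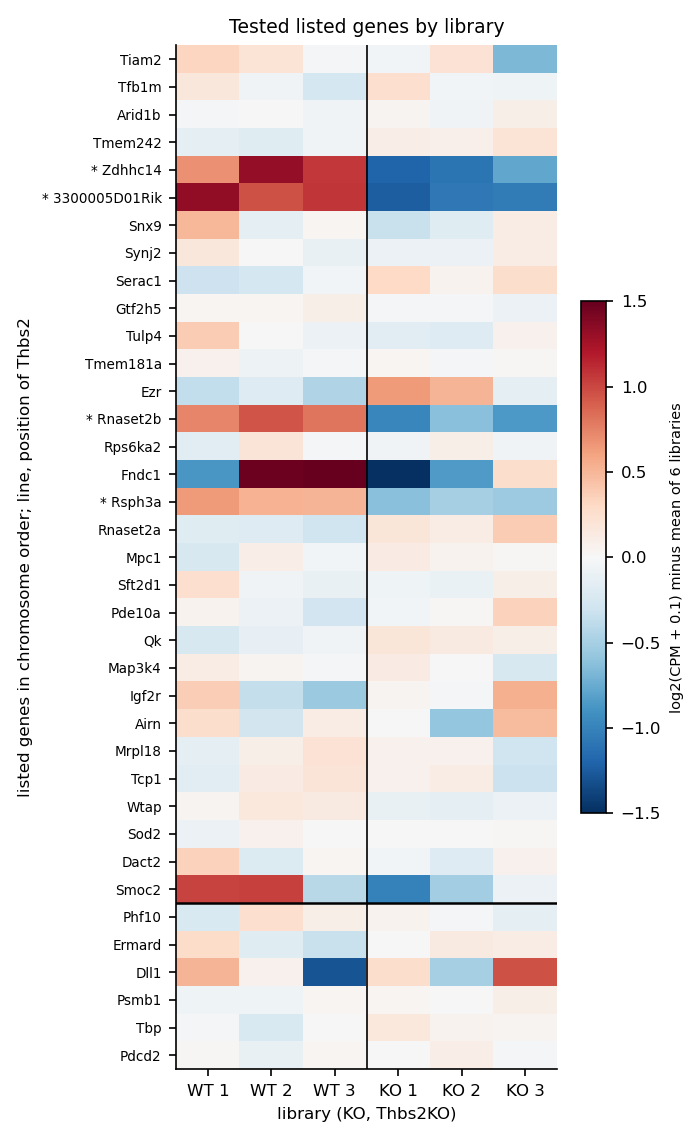
Each tested listed gene (rows, in chromosome order; the line marks the position of Thbs2) in each library (columns; KO, Thbs2KO), coloured by log2(CPM + 0.1) minus its mean over the 6 libraries, with colours ending at 1.5 and -1.5; asterisks mark the 4 genes that changed. Those 4 rows separate the groups in every library, whereas Smoc2, Fndc1, Igf2r and Dll1 vary within a group as well.

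Separation of the groups was more frequent than change. In 12 of the 37 tested listed genes (32.4%) the libraries of WT and Thbs2KO did not overlap, against 19.7% of all tested genes, and 10 (27%) had an unadjusted p below 0.05, against 13.3%. By level, the groups did not overlap in 9 of 24 listed genes with a mean of 10 to 100 CPM (37.5%), against 18.7% of genes of that level on other chromosomes. At 1 to 10 CPM it was 2 of 6 against 19.3%, and at 100 CPM and over 1 of 6 against 22.7%. Changed were 3 of 24 (12.5%) in the middle class, against 1.02% elsewhere, 1 of 6 in the lowest, against 0.899%, and 0 of 6 in the highest, against 1.19%. The highest value lay in WT replicate 1 for 10 of the 37 genes and in Thbs2KO replicate 2 for 1, and the lowest in WT replicate 3 for 10.

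The unlisted genes of the stretch were counted in the same way, since the list leaves most of them out. Of the 213 tested genes within 12 Mb of Thbs2, listed and unlisted together, 12 changed (5.63%) and all 12 fell, whereas 128 of 12918 genes on other chromosomes changed (0.991%), 71 of them upwards. The 12 include Rnaset2b, Rsph3a and Tagap1, each a single copy of a near-identical pair. With copies summed before the fit, only the Rnaset2 sum of these pairs passed (edgeR adjusted p = 0.0472). The adjusted p by edgeR was 0.0531 for the Rsph3 sum and 0.312 for the Tagap sum. Without overlap were 74 of the 213 (34.7%). The number differed between fits, and did not always move with the number over all genes. Without WT replicate 1 edgeR called 11 within 12 Mb, all lower, in a fit that called 2.89% of all genes. DESeq2, with 4.45% of all genes called, called 28 within 12 Mb, 18 lower and 10 higher. With edgeR, 2 were called without Thbs2KO replicate 1 and 3 each without replicate 2 of WT, replicate 3 of WT or replicate 2 of Thbs2KO, all lower, in fits that called 0.274% to 0.575% of all genes. On the rest of chromosome 17, 7 of 458 genes changed (1.53%), 4 upwards and 3 downwards. Chromosome 17 without Thbs2 held 19 changed genes of 671 (2.83%); chromosome 3 followed with 2.8% and chromosome 14 with 2.39%. Chromosome 17 was also first in the share of genes without overlap, 27.4% against 23.3% on chromosome 3, and in the share with an unadjusted p below 0.05, 20.1% against 17.8%.

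**Figure D4:**
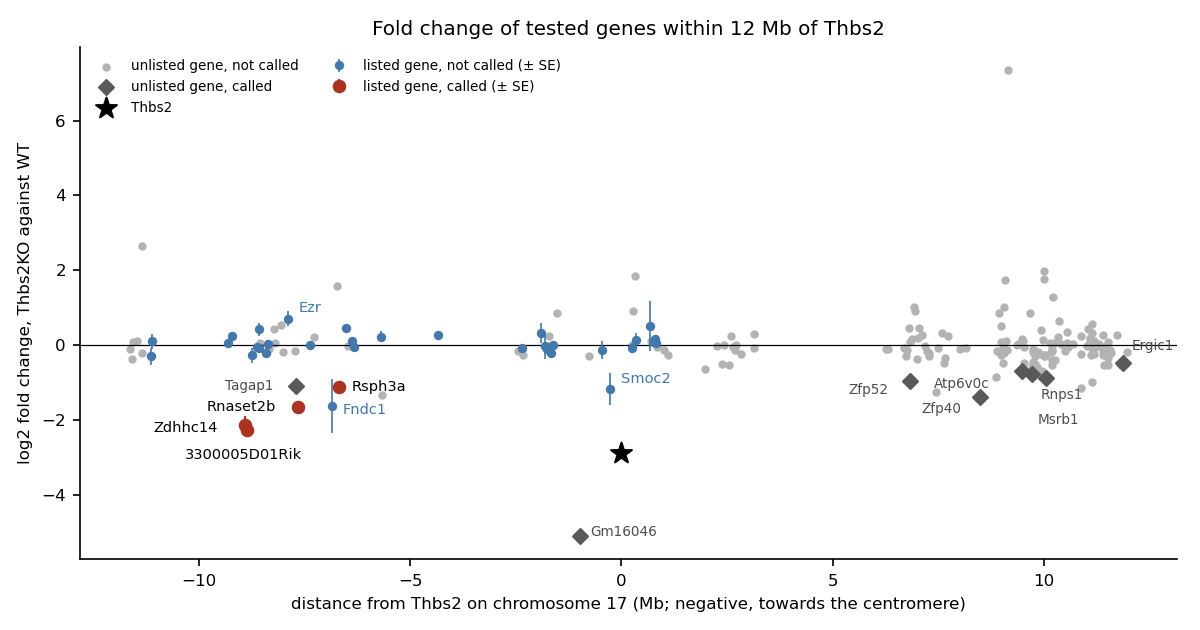
Fitted log2 fold change, Thbs2KO against WT (vertical axis), of the tested genes within 12 Mb of Thbs2 by distance from it (horizontal axis, Mb, negative towards the centromere); listed genes carry their standard error, and called means changed. The 4 listed genes that changed lie between 6.69 and 8.91 Mb on the centromeric side, and the fitted values of Gm16046 and of the topmost point, Prss41, rest on very few reads in the lower group.

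Most of the tested genes of the stretch lie far from Thbs2, so counts by distance are given with their totals. Within 1 Mb, 1 of 15 tested genes changed (6.67%), from 1 to 2.5 Mb 0 of 18, from 2.5 to 5 Mb 0 of 9, and from 5 to 12 Mb 11 of 171 (6.43%). In that outer range, 5 of 39 genes changed on the centromeric side (12.8%) and 6 of 132 on the telomeric side (4.55%). Listed genes gave 0 of 8, 0 of 7, 0 of 1 and 4 of 21 over the same ranges. The unlisted gene that changed within 1 Mb had enough reads to be tested only through the WT libraries, where it was high. Across genes, the Spearman correlation of the absolute log2 fold change with distance was 0.18 over the 37 listed genes and -0.05 over the 213, a description of genes that share libraries and, in part, reads.

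The gene that changed within 1 Mb was Gm16046, an unlisted long intergenic noncoding RNA 0.982 Mb from Thbs2. It had 21, 11 and 20 reads in the WT libraries and 0, 0 and 1 in the Thbs2KO libraries (edgeR adjusted p = 0.0416), a ratio of 46.1 with an exact 95% interval of 7.92 to 1857 that covers counting error only. Its call was lost in all 4 fits with 1 library left out in which it was tested (edgeR adjusted p from 0.0696 to 0.204): those without WT replicate 2 or any of the Thbs2KO replicates. Afdn, the junction protein afadin and also within 1 Mb, was at 60.3, 58.8 and 60.6 CPM against 52.7, 48.4 and 46.2 CPM, without overlap; its log2 fold change of -0.29 did not pass the test (edgeR adjusted p = 0.158), and it is named here after its values were seen. So is 9030025P20Rik, at 4.99, 6.31 and 4.86 CPM against 12, 8.95 and 9.44 CPM (log2 fold change 0.91, edgeR adjusted p = 0.079), of whose 50-base stretches 59.5% occur in Ermard.

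Apart from Gm16046 and Tagap1, the unlisted genes that changed lie on the telomeric side. The zinc finger genes Zfp52 and Zfp40 fell, from 22.1 ± 1.93 to 11.2 ± 0.421 CPM (log2 fold change -0.97, edgeR adjusted p = 0.0118) and from 4.72 ± 0.165 to 1.8 ± 0.207 CPM (-1.38, adjusted p = 0.0257). Msrb1, which repairs oxidised methionine, fell from 57 ± 5.47 to 30.8 ± 2.66 CPM (-0.89, edgeR adjusted p = 0.0186), and Ergic1, a protein of the compartment between endoplasmic reticulum and Golgi, from 255.4 ± 14 to 184.2 ± 4.49 CPM (-0.47, adjusted p = 0.0408). These 4 calls, and those of Tagap1, Atp6v0c and Rnps1, were each lost without replicate 2 or 3 of WT and without replicate 1 or 2 of Thbs2KO, and those of Zfp40, Ergic1 and Rnps1 also without Thbs2KO replicate 3. The highest edgeR adjusted p in these fits was 0.0859 for Zfp52, 0.138 for Zfp40, 0.102 for Msrb1, 0.218 for Ergic1, 0.0744 for Tagap1, 0.102 for Atp6v0c and 0.154 for Rnps1.

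Atp6v0c, a proton channel subunit of the vacuolar ATPase, and Rnps1, a splicing factor bound at exon junctions, had log2 fold changes of -0.71 (edgeR adjusted p = 0.0112) and -0.76 (adjusted p = 0.0322). Processed copies of both on chromosome 6 rose in the same libraries: Atp6v0c-ps2 from 0.603, 0.657 and 0.377 CPM to 29.3, 35.1 and 23.5 CPM, and Rnps1-ps from 1.03, 1.31 and 1.63 CPM to 24.6, 25.4 and 20.8 CPM. Atp6v0c-ps2 holds 10.7% of the 50-base stretches of Atp6v0c. For Rnps1 the gene that holds most of them, 10.8%, is named Gm9825 in GENCODE M21, and it was not matched to Rnps1-ps here. The part of read division in these decreases was not tested.

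Among unlisted genes of the stretch that did not pass the test, the smallest p values belonged to Gm6475, Prss41, Zfp213 and Abca3. The serine protease gene Prss41 had 0 reads in every WT library and 24, 23 and 10 in the Thbs2KO libraries (edgeR adjusted p = 0.0654). Set against a floor of 3 reads over the WT group, this is a ratio of 21.4, which leaves out counting error in the Thbs2KO reads. The pseudogene Gm6475 had 2, 6 and 3 reads against 19, 17 and 27 (adjusted p = 0.0645 by edgeR). Prss41 and Gm6475 had enough reads to be tested only through the Thbs2KO libraries, where they were high. Zfp213 was at 8.64 ± 0.372 CPM in WT against 4.75 ± 0.683 CPM in Thbs2KO, and Abca3, a lipid transporter, at 26.1 ± 2.37 and 47.3 ± 9.27 CPM, both with an edgeR adjusted p of 0.0654 and without overlap. Genes with higher values in Thbs2KO thus occur on the stretch, although none passed the edgeR test; limma-voom called 1 of these 4, Prss41, and DESeq2 all 4.

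**Figure D5:**
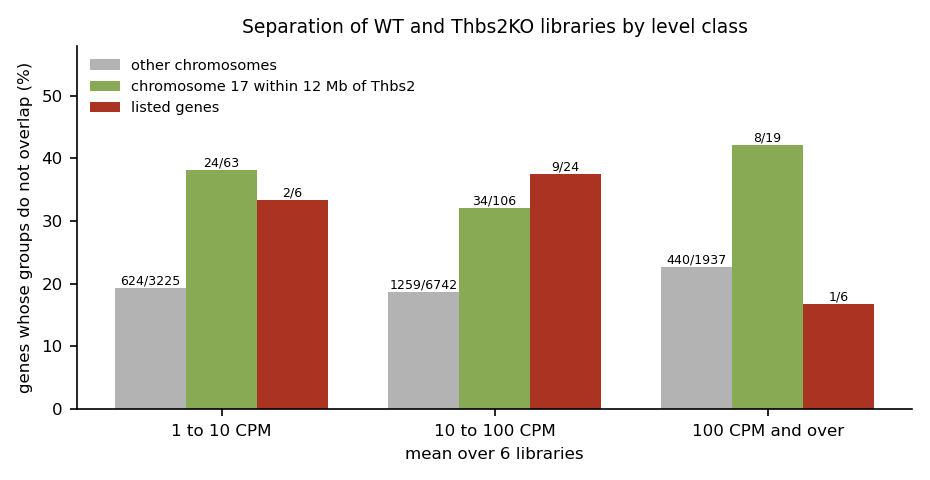
Percent of tested genes whose WT and Thbs2KO libraries do not overlap (vertical axis, from 0), by mean level over the 6 libraries (horizontal axis), on other chromosomes, on chromosome 17 within 12 Mb of Thbs2 and among the listed genes; numbers over the bars give genes without overlap of genes tested. In each level class the stretch of chromosome 17 lies above other chromosomes (38.1%, 32.1% and 42.1% against 19.3%, 18.7% and 22.7%), and 2 of the 3 classes of listed genes hold 6 genes each.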

How the data were processed

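RNA-seq of 6 CAF libraries (3 WT, 3 Thbs2KO) was analysed from the deposited expected counts, the reads per gene that RSEM estimates, not scaled between libraries. The tools named in the submitters' processing notes are Trimmomatic 0.39 for trimming, STAR 2.7.3a for alignment and RSEM for counting, on mm10. Which annotation and which RSEM version was used is not given in the sources used here. Per the labels' protocols, libraries were made with the TruSeq v2 kit, which marks no strand. From 3.8% to 3.88% of values per library were not whole, and all were rounded to whole numbers. Totals were 23986332, 23061568 and 24417464 in WT and 20289615, 19649066 and 20860335 in Thbs2KO.

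Genes passing filterByExpr (13590 of 55401) were tested with the robust quasi-likelihood test of edgeR 4.0.16 in R 4.3.3 (TMM scaling, genotype as the only term, Benjamini-Hochberg adjustment, threshold 0.05). The step was tested on simulated data. CPM values use TMM factors; standard errors come from the F statistic. Positions, exon overlap and transcript sequences come from GENCODE M21 (GRCm38), joined by Ensembl identifier; 13584 tested genes were placed. Copies were aligned with Biopython 1.88, and shared stretches are of 50 bases. Distances run between gene bodies. The listed genes and the other lists were chosen with earlier results of these data known.

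Named were Thbs2; listed genes that changed; those within 1 Mb, Igf2r, Airn and Slc22a3; the 6 other listed genes with the smallest p; every other listed gene by its log2 fold change; unlisted genes within 12 Mb that changed and the 4 next by p; and up to 2 genes of each other list. Alternatives were other scalings, DESeq2 1.42.0, limma-voom (limma 3.58.1), other filters, no robust estimation, a replicate block, each library left out, 2 libraries left out together and Thbs2KO replicates 1 and 2 summed. Summing copies before the fit and the pair Tagap with Tagap1 were added after the data were seen.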

Additional observations from a re-analysis of the deposited data

How the results depend on the processing

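With RLE or upper-quartile scaling, TMM factors without chromosome 17, limma-voom, no filter or no robust estimation, the same 4 listed genes changed; at a mean of at least 5 CPM, which leaves Zdhhc14 untested, the other 3 did. 3300005D01Rik passed in 18 of 18 alternatives and Rnaset2b in 17 of 17 (its copies are separate genes in those), Rsph3a in 15 of 17 and Zdhhc14 in 11 of 17. DESeq2 called 685 genes, 28 on the stretch (10 higher, 18 lower) and 7 listed genes, adding Ezr, Rnaset2a and Smoc2. No filter gave 245 genes. With WT replicate 1 and Thbs2KO replicate 3 both left out, 1519 genes changed, 36 on the stretch (12 higher, 24 lower) and 10 listed, adding Ezr, Fndc1, Igf2r, Qk, Rnaset2a and Wtap. With Thbs2KO replicates 1 and 2 summed, 40 genes changed and 3 on the stretch. With a replicate block, 30 genes changed (0.221%), 2 on the stretch, both listed (3300005D01Rik and Rnaset2b), and the Thbs2 log2 fold change was -2.86 (edgeR adjusted p = 0.0784). With genotype as the only term, the Thbs2 log2 fold change was -2.89 (edgeR adjusted p = 0.00521). Thbs2 passed in 17 of 18 alternatives, all but the replicate block. The labels do not say whether replicate numbers pair the samples. Deviations from the group mean correlated at -0.292, 0.171 and -0.331 between same-numbered libraries. With so few libraries per group these values cannot decide whether the numbers share a preparation.

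Leaving out 1 library at a time gave 38 to 397 changed genes (0.274% to 2.89% of those tested), 2 to 11 on the stretch, 2 to 5 listed, a median log2 fold change of listed genes of -0.02 to 0.03, and for Tmem181a with Tmem181b-ps a summed log2 fold change of -0.02 to 0.12. The stretch fell to 2 changed genes without Thbs2KO replicate 1 and to 3 without WT replicate 2, WT replicate 3 or Thbs2KO replicate 2, and numbered 11 without WT replicate 1 (all lower) and 9 without Thbs2KO replicate 3 (8 lower and 1 higher, Ezr). The cause was not tested. Besides that sum and that median, signs reversed for 11 listed genes near 0 that did not pass the test. Their log2 fold changes with 1 library left out were -0.34 to 0.21 for Airn, -0.09 to 0.10 for Rps6ka2, -0.03 to 0.05 for Sod2, -0.11 to 0.03 for Synj2, -0.24 to 0.04 for Dact2, -0.13 to 0.06 for Sft2d1, -0.21 to 0.03 for Phf10, -0.01 to 0.22 for Tfb1m, -0.16 to 0.02 for Map3k4, -0.20 to 0.01 for Mrpl18 and -0.20 to 0.03 for Tcp1. Other settings reversed Rps6ka2 (0.01 with no filter), Airn (0.09 with the summed libraries) and, with both libraries left out, Sod2 (-0.03), Map3k4 (0.05) and Sft2d1 (0.00). Depth limits Dll1, Wdr27, Sytl3, Slc22a3 and Gm16046, each with few or no reads in a library.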
